A study of Mus musculus with 15 samples.

Results

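DNA repair genes were read in heart muscle cells of mice exposed to protons. The 36 genes were chosen by name and grouped by the kind of damage they act on: 21 for double-strand breaks, 8 for base excision, 5 for nucleotide excision and 2 for mismatch repair. Of these, 35 had a probe set of their own on the array, out of 19937 genes with one. The only probe set of Rnf8, a ubiquitin ligase that marks chromatin at breaks, also carries a second gene, so no value is given for it.

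The cells were cardiomyocytes from the left ventricle of male C57Bl/6NT mice aged 8 to 9 months, freed by perfusing the heart with collagenase. Proton mice had received 90 cGy of 1 GeV protons over the whole body, and their cells were taken at day 1 (2 arrays), day 3 (3 arrays), day 5 (3 arrays), day 12 (2 arrays) and day 26 (2 arrays). Sham mice gave 2 arrays at day 1 and 1 at day 3, and these 3 were the reference for all 5 days. Days are those of the sample titles; the design text names days 1, 3, 7, 14 and 28 and a second ion whose samples are not analysed here. Replicates 1 and 2 of day 5 were the closest of the 105 pairs of arrays. Their log2 difference had an SD of 0.0768 over the 12102 genes of higher signal that were tested, against 0.222 for the next closest pair, and over all 34760 probe sets, with the dim ones, 0.3225 against 0.4635. Their mean was counted as 1 sample, for a total of 14. With 15 separate arrays, 0 repair genes passed the limma tests described here, as with 14 samples, while the number of all genes that passed at day 26 was 54, against 5 with 14 samples. Nothing in the labels ties single arrays to single mice, so the p-values measure the spread between these samples, which may be technical. The days after day 3 had no sham cells of their own, so time and treatment cannot be told apart there.

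Cells meet several kinds of DNA damage with separate pathways. A double-strand break is sensed by the MRN complex and the kinase ATM, and is then joined end to end by the Ku and DNA-PK machinery or copied from a sister chromatid by homologous recombination. Oxidised or deaminated bases are cut out one at a time by base excision repair, bulky lesions by nucleotide excision repair, and copying errors by mismatch repair. Homologous recombination and mismatch repair are tied to DNA replication, and adult cardiomyocytes seldom divide, while ionising radiation leaves both breaks and oxidised bases.

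Most of the repair genes lay above the median signal of the array in these cell suspensions, and most of the recombination genes lay below it. A gene was tested where its mean signal over the 15 arrays exceeded 5.00, the median over the probe sets of the array, which is no background call. This held for 28 of the 35 genes (80.0%) and for 60.7% of all genes. All 7 measured genes of break signalling, all 5 of end joining, all 8 of base excision and all 5 of nucleotide excision repair passed. Of homologous recombination, 2 of 8 passed, Rad52 and Wrn, and of mismatch repair 1 of 2, Pms2. The genes below were Brca1, Brca2, Palb2, Rad51c, Blm, Fancd2 and Msh6. Nearest to the limit were Lig1 (5.11) and Wrn (5.26) above it, and Msh6 (4.61) and Brca2 (4.47) below it. The signal of a probe set also depends on its probes, so these counts place each gene against a common limit and do not rank the genes by RNA.

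Other genes of the same pathways, listed by name, passed the limit in 20 of 33 cases for double-strand breaks, 9 of 15 for base excision, 15 of 17 for nucleotide excision and 3 of 4 for mismatch repair. Of replication and proliferation genes, 21 of 36 passed (58.3%, against 60.7% of all genes). All 12 cardiomyocyte markers passed, and their mean deviation per sample stayed between -0.043 and 0.049 on the log2 scale. Markers of other cells also passed (12 of 12 endothelial, 11 of 12 fibroblast, 12 of 13 macrophage, 7 of 10 lymphocyte, 4 of 10 neutrophil and 2 of 3 erythroid genes), and by the labels some inflammatory and endothelial cells may have been in the suspension. In such a mixture, fewer cells of a type and less RNA per cell cannot be told apart. The mean deviation of the endothelial, fibroblast and macrophage lists, called the other-cell score here, spanned 0.10 to 0.48 on day 1, -0.70 to 0.50 on day 3, -0.055 to 0.10 on day 5, -0.27 to 0.71 on day 12 and 0.054 to 0.46 on day 26, against -0.45 to -0.066 in sham cells. The neutrophil and erythroid lists stood highest on day 1. Their mean deviations there were 0.55 and 0.91 in replicate 1, and 1.87 and 2.61 in replicate 2. All 4 neutrophil markers were above sham there, with a median difference of 1.36 and 2 at an unadjusted p under 0.05, and both erythroid markers were, with a median of 1.45. On day 5, all 7 lymphocyte markers were above sham, against 51.17% of all tested genes. Their median difference was 0.76, and 3 had an unadjusted p under 0.05 by limma, against 8.99% of all tested genes. The part of the lymphocyte markers in the day 5 differences of repair genes was not tested.

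**Figure D1:**
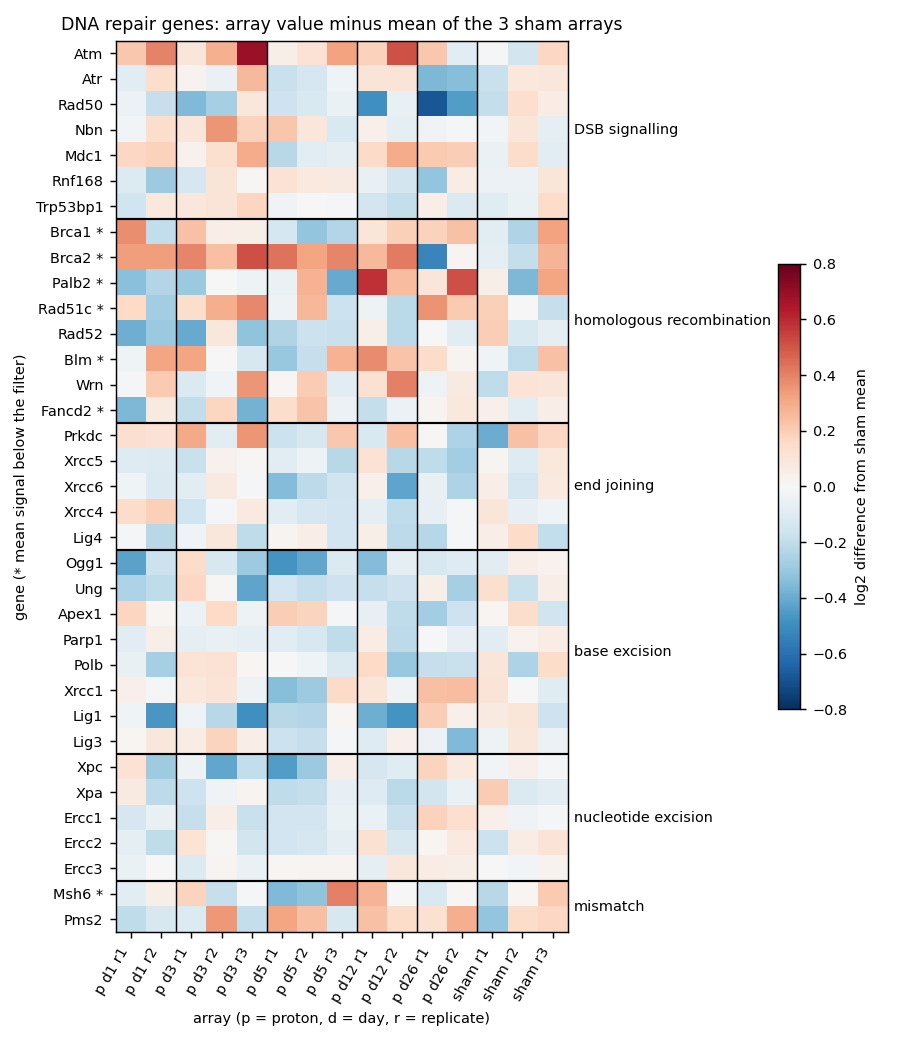
Log2 signal of each of the 35 repair genes on each of the 15 arrays, minus the mean of the 3 sham arrays; rows are grouped by role, black lines part the roles and the days, and an asterisk marks the 7 genes below the signal limit. No row is of one colour across all proton arrays; the darkest blue block is Rad50 at day 26 (5.60 and 5.84, against a sham mean of 6.29).

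No repair gene passed the test after proton exposure at any day. Each gene was compared by limma, a linear model with a spread shared across genes, in 9 tests: each of the 5 days minus sham, the mean of the 5 days minus sham, the late days (12 and 26) minus the early days (1 and 3), and F-tests that ask whether any day differs from sham and whether the days differ from each other. Of the 28 genes, 0 had a Benjamini-Hochberg adjusted p under 0.05 in any of the 9 tests, and the lowest was 0.196. The array as a whole gave few calls. The share of the 12102 tested genes that passed was 0% on day 1, 0.00826% on day 3, 0.0496% on day 5, 0% on day 12, 0.0413% on day 26, 0.0248% for the mean of the days, 0.00826% for late minus early, 0.0248% for any day against sham and 0% for differences among days.

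At an unadjusted p under 0.05 the repair genes were also few. There was 1 of 28 on day 1 (Rad52), 0 on day 3, 0 on day 5, 1 on day 12 (Lig1), 2 on day 26 (Rad50 and Atr), 0 for the mean of the days, 1 for late minus early (Apex1) and 0 in each F-test. All 5 differences were negative. The share of all tested genes under the same limit was 5.5% on day 1, 8.86% on day 3, 8.99% on day 5, 8.01% on day 12, 14.3% on day 26, 12% for the mean of the days, 13.2% for late minus early, 9.54% for any day against sham and 8.43% for differences among days. The largest share among the repair genes was 7.14%, at day 26, and in none of the 9 tests did their share exceed that of all genes. Another scaling changed this for late minus early, where the share was 25% with equal array medians, against 15.7% of all genes, and 17.9% with quantile normalization, against 12.8%. At day 26 it was 14.3% under both, against 13.9% of all genes with equal array medians and 14.3% with quantile normalization.

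The differences were small. The median over the 28 genes was -0.072 on day 1, -0.0099 on day 3, -0.097 on day 5, -0.078 on day 12 and -0.042 on day 26 on the log2 scale. The median of all tested genes was -0.0079 on day 1, 0.0042 on day 3, 0.0057 on day 5, 0.0099 on day 12 and 0.052 on day 26. Averaged over the 5 days, 20 of the 28 genes lay below sham and 8 above, while 46.67% of all tested genes lay below. The median was -0.049, against 0.014 for all genes. With quantile normalization 21 lay below with a median of -0.094, and with equal array medians 21 with a median of -0.075. The medians of all genes were then -0.013 and -0.012. The values ran from -0.25 for Rad50 to 0.26 for Atm. For this mean, the 95% interval of all 28 genes lay within a 1.5-fold change either way, as it did for 86.5% of all genes. Single days rest on 2 or 3 proton samples. There the interval was that narrow for 21 genes on day 1, 25 on day 3, 26 on day 5, 23 on day 12 and 25 on day 26. It was that narrow for 69.84% of all tested genes on day 1, 76.26% on day 3, 69.86% on day 5, 68.62% on day 12 and 62.93% on day 26. For the other repair genes, a 1.5-fold change on that day lay within the interval.

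**Figure D2:**
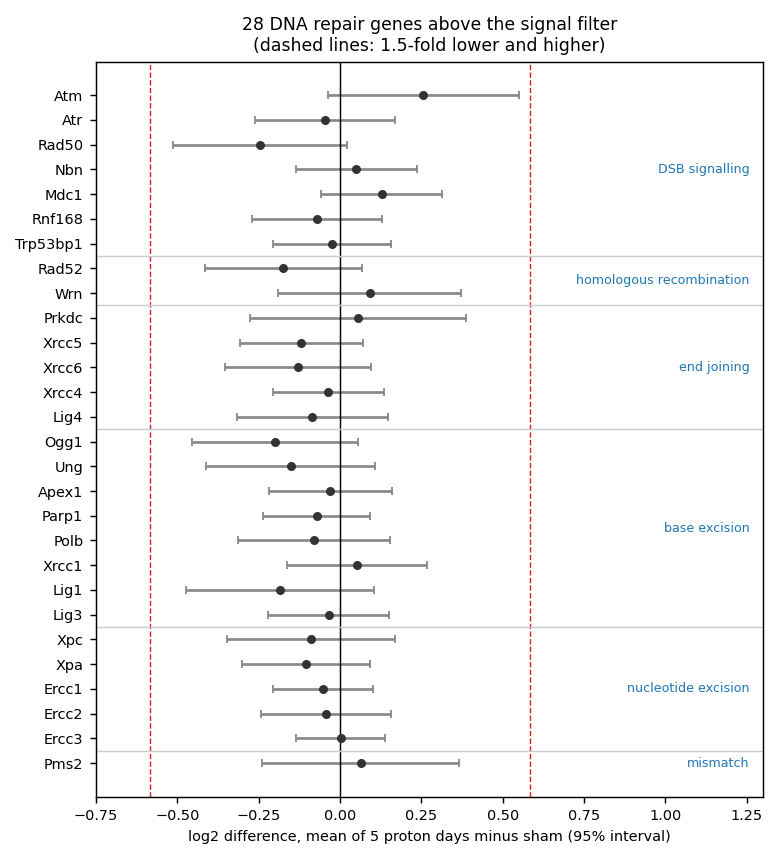
Difference between the mean of the 5 proton days and sham cells for the 28 tested repair genes (log2, points), with the 95% interval of the limma fit (bars); dashed lines mark a 1.5-fold change and grey lines part the roles. Each interval includes 0 and ends within the dashed lines.

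The genes that signal double-strand breaks held the extremes of that mean in both directions, Rad50 and Atm. Rad50, on chromosome 11 (53649519 to 53707319, GRCm38.p6), encodes the clasp-like subunit of the MRN complex that tethers broken ends. Its log2 signal was 6.24 and 6.10 at day 1, 5.93, 6.02 and 6.38 at day 3, 6.12, 6.17 and 6.23 at day 5, 5.79 and 6.23 at day 12, and 5.60 and 5.84 at day 26, against 6.10, 6.42 and 6.34 in sham cells. Both day 26 samples lay below all sham samples, while the other days overlapped sham. The share of all genes that part from sham in this way is not given, here or for the genes that follow. The difference at day 26 was -0.57 ± 0.17 (SE; 95% interval -0.94 to -0.19), with an unadjusted p of 0.00621 and an adjusted p of 0.196 by limma. Late minus early it was -0.28 ± 0.13 (adjusted p = 0.379), and -0.17 without day 12 replicate 1. With the other-cell score as a covariate the day 26 difference was -0.71, with an adjusted p of 0.0427 by limma, the lowest over its alternatives, which ran from 0.0427 to 0.675. That covariate raised the number of calls over all genes at day 26 to 135, against 5 without it.

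At day 26, the markers of several other cells also differed from sham, in both directions. The lymphocyte markers had a mean deviation of 0.76 and 0.87 in the 2 day 26 samples, against -0.62 to -0.32 in sham cells; 7 of 7 were higher and 4 had an unadjusted p under 0.05. All 12 endothelial (11 with equal array medians), 10 of 11 fibroblast and 12 of 12 macrophage genes had positive differences, against 58.84% of all tested genes. Neutrophil markers were split, 2 of 4 positive. Both erythroid markers were lower, as Rad50 was, with a median difference of -1.83, and their mean deviation was -1.85 and -1.19 in the day 26 samples, against -0.38 to 1.47 in sham cells. Over the 14 samples Rad50 and the other-cell score had a correlation of 0.089, or 0.66 within groups. With the lymphocyte markers the correlation of Rad50 was -0.23, or 0.71 within groups. The covariate used above held only the endothelial, fibroblast and macrophage lists, and their part in the day 26 values was not tested further. The part of the lymphocyte, neutrophil and erythroid markers was not tested.

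Atr and Atm are related kinases that start the damage response, Atr at stalled replication forks and Atm at double-strand breaks. Atr (chromosome 9, 95857597 to 95953217) was at 5.74 and 5.97 at day 1, 5.86, 5.77 and 6.09 at day 3, 5.65, 5.69 and 5.79 at day 5, 5.93 and 5.93 at day 12, and 5.46 and 5.49 at day 26, against 5.65, 5.91 and 5.92 in sham cells. The 2 day 26 samples were the lowest of all, below every sham sample, and both day 12 samples lay just above sham. The day 26 difference was -0.35 ± 0.14 (adjusted p = 0.285 by limma). Atr also had the smallest p of the repair genes in both F-tests, with adjusted p-values of 0.558 for any day against sham and 0.592 among days. Atm (chromosome 9, 53437122 to 53536828) was at 5.85 and 6.03 at day 1, 5.73, 5.92 and 6.33 at day 3, 5.68, 5.75 and 5.96 at day 5, 5.82 and 6.14 at day 12, and 5.85 and 5.55 at day 26, against 5.62, 5.49 and 5.80 in sham cells. All samples of days 1 and 12 were above sham, and the other days overlapped it. The difference was 0.36 ± 0.17 at day 3 (adjusted p = 0.566 by limma) and 0.19 without day 3 replicate 3, and for the mean of the days it was 0.26 ± 0.13 (adjusted p = 0.453). Day 3 replicate 3 and day 12 replicate 2 held both the highest Atm values and the highest other-cell scores, 0.50 and 0.71.

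The rest of the break-signalling group differed from sham by less. Nbn encodes nibrin, the MRN subunit that binds ATM; it was at 6.95 and 7.12 at day 1, 7.07, 7.32 and 7.16 at day 3, 7.20, 7.07 and 6.85 at day 5, 7.01 and 6.89 at day 12, and 6.95 and 6.96 at day 26, against 6.95, 7.07 and 6.90 in sham cells. Day 3 lay just above sham, with a difference of 0.21 ± 0.11 (adjusted p = 0.595 by limma). A second Nbn probe set with lower signal went its own way, with differences of -0.28 at day 1 and 0.37 at day 26, where the first had 0.062 and -0.020. Mdc1, the scaffold that binds phosphorylated histone H2AX, was at 6.16 and 6.18 at day 1, 6.03, 6.12 and 6.29 at day 3, 5.77, 5.90 and 5.91 at day 5, 6.14 and 6.29 at day 12, and 6.20 and 6.19 at day 26, against 5.94, 6.14 and 5.90 in sham cells. The samples of days 1, 12 and 26 lay above all sham samples by a narrow margin, and the day 12 difference was 0.22 ± 0.12 (adjusted p = 0.624). Rnf168, the ligase that extends the ubiquitin mark, averaged 6.46 ± 0.13 at day 1 and 6.66 ± 0.081 in sham cells (SD, n = 2 and 3; adjusted p = 0.754 by limma), a difference of -0.20 that was -0.11 without day 1 replicate 2. Trp53bp1, whose protein 53BP1 favours end joining, averaged 6.19 in the late and 6.33 in the early proton days, with 6.29 ± 0.13 in sham cells, and had an adjusted p of 0.499 for late minus early, a difference of -0.14 that was -0.082 without day 1 replicate 2.

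**Figure D3:**
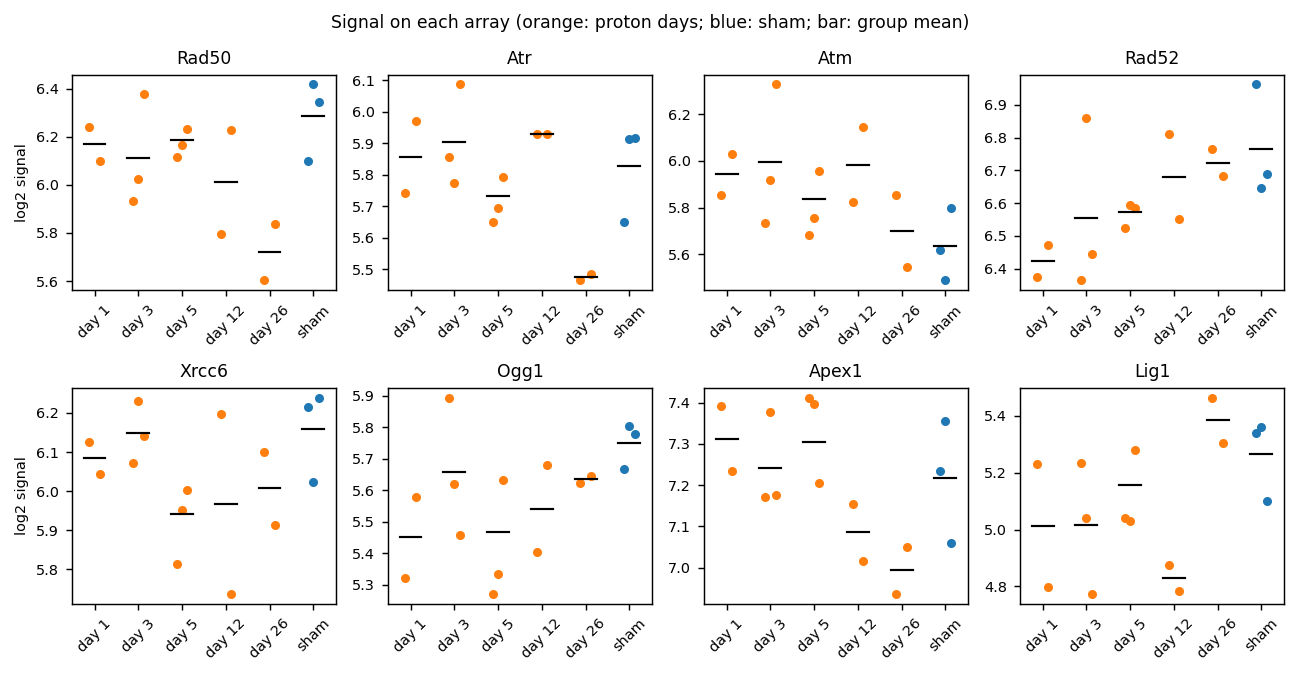
Log2 signal of 8 repair genes on every array (points; orange for the proton days, blue for sham at the right) with group means (bars; the near-identical day 5 arrays count as 1 sample). Rad50, Atr, Apex1 and Ogg1 were below all sham arrays at day 26, Lig1 at day 12, Rad52 and Ogg1 at days 1 and 5, and Xrcc6 at day 5. Atm was above all sham arrays at days 1 and 12, and Atr at day 12. Each panel has its own axis, so heights do not compare between genes.

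Among the recombination genes above the limit, Rad52 and Wrn pointed in opposite directions. Rad52, which anneals single strands, was at 6.38 and 6.47 at day 1, 6.36, 6.86 and 6.44 at day 3, 6.52, 6.59 and 6.59 at day 5, 6.81 and 6.55 at day 12, and 6.76 and 6.68 at day 26, against 6.96, 6.65 and 6.69 in sham cells. Both day 1 samples and every day 5 array lay below sham, and the other days overlapped it. The day 1 difference was -0.34 ± 0.15, with an unadjusted p of 0.047 and an adjusted p of 0.754 by limma. The neutrophil and erythroid markers were highest on that day, in replicate 2 more than in replicate 1. Their part in the Rad52 difference was not tested. Wrn, the helicase lost in Werner syndrome, averaged 5.45 ± 0.20 at day 12 and 5.19 ± 0.18 in sham cells (SD, n = 2 and 3; adjusted p = 0.653), a difference of 0.26 that was 0.12 without day 12 replicate 2, 0.41 without day 12 replicate 1 and 0.16 without sham replicate 1.

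The 6 recombination genes below the limit were read from the fit without the filter. Brca1, the gene of a ubiquitin ligase that commits breaks to recombination, was at 4.30 and 3.73 at day 1, 4.17, 3.98 and 3.98 at day 3, 3.79, 3.61 and 3.70 at day 5, 4.03 and 4.12 at day 12, and 4.11 and 4.16 at day 26, against 3.85, 3.69 and 4.25 in sham cells. Every day overlapped the sham range. The contrast of smallest p, day 5, was -0.23 ± 0.22 (adjusted p = 0.882 by limma), and ran from -0.35 without sham replicate 2 to -0.069 without sham replicate 3. Brca2, a core gene of homologous recombination, averaged 4.60 on day 1, 4.65 on day 3, 4.65 on day 5, 4.60 on day 12 and 4.01 on day 26, against 4.26 ± 0.24 in sham cells (SD, n = 3). Its differences were 0.33 to 0.38 for days 1 to 12 and -0.25 at day 26, and both day 1 and all day 5 arrays lay above sham. The day 26 value was 0.020 without day 26 replicate 1 and -0.53 without replicate 2. The F-test for any day against sham had an unadjusted p of 0.0459 and an adjusted p of 0.66.

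Palb2, the bridge between BRCA1 and BRCA2, averaged 3.83 over the late and 3.27 over the early proton days, with 3.47 ± 0.34 in sham cells. Late minus early was 0.56 ± 0.19 (unadjusted p = 0.0119 and adjusted p = 0.355 by limma), and every late sample was above every early one. Rad51c, which acts in homologous recombination, averaged 4.55 ± 0.12 at day 3 and 4.28 ± 0.19 in sham cells (SD, n = 3 each; adjusted p = 0.783), a difference of 0.27 that was 0.18 without sham replicate 3. Blm, a helicase that dissolves crossed strands, averaged 4.38 ± 0.11 at day 12 and 4.08 ± 0.22 in sham cells (adjusted p = 0.778). Fancd2, the monoubiquitinated core of the Fanconi anaemia pathway, averaged 3.63 ± 0.28 at day 3 and 3.76 ± 0.079 in sham cells (adjusted p = 0.922), a difference of -0.13 that was -0.29 without day 3 replicate 2 and -0.011 without day 3 replicate 3. The low signals varied more: the pooled SD within groups had a median of 0.21 over the 7 genes below the limit, 0.14 over the 28 above it and 0.17 over all tested genes.

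Many genes used in replication carry E2F-type sites in their promoters, where E2F factors switch them on as cells enter S phase. RefSeq promoters (250 bases before to 50 after a gene start, GRCm38.p6) were at hand for 28 of the 36 genes. They were searched on both strands for TTTCCCGC, TTTCGCGC, TTTGGCGC and TTTGCCGC. A match was found for 3 of the 6 genes below the signal limit that had a promoter, 3 of the 21 above it, and 704 of all 27025 genes (2.605%). Of the other motifs searched, TTTGAA, the cell cycle homology region, was in 0 of the 6 and 0 of the 21, against 20.23% of all genes. CCAAT was in 4 of the 6 and 10 of the 21 (41.06% of all genes), GGGCGG in 4 of the 6 and 18 of the 21 (38.2%), and CCGGAAGT in 1 of the 6 and 4 of the 21 (4.307%). A match shows only that these letters are present. A gene was counted if any of its starts had a match. The repair genes and all genes were not matched for number of starts or GC content, so these shares do not show enrichment. The windows around the E2F-type matches are shown 5′ to 3′ on the strand of the gene, with the matched letters in capitals. The first 4 belong to genes below the limit and the last 3 to genes above it. A start can lie inside the annotated span of its gene, as for Xrcc6, Lig1, Brca2 and, by a few bases, Mdc1. For Rad51c, the label second start only numbers the windows: that start is at the outer end of the gene, and the other lies inside it.
Brca2, plus strand, chr5:150522429-150522484: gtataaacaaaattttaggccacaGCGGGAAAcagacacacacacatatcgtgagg
Rad51c, minus strand, chr11:87404464-87404519: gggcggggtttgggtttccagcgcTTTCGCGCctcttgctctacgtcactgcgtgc
Rad51c, minus strand, second start, chr11:87404928-87404983: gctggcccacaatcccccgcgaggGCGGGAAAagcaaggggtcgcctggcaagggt
Msh6, plus strand, chr17:87975041-87975096: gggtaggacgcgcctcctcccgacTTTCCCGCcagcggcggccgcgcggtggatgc
Lig1, plus strand, chr7:13278828-13278875: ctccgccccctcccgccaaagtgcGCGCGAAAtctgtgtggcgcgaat
Mdc1, plus strand, chr17:35841458-35841513: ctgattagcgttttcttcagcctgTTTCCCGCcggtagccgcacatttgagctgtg
Xrcc6, plus strand, chr15:82016299-82016354: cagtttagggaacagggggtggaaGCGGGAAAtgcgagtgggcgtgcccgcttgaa

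The 5 end joining genes were all above the limit. None passed the test, and the differences at single days ran from -0.24 (Xrcc5, day 26) to 0.19 (Prkdc, day 3). Their medians against sham were negative at each of the 5 days, from -0.032 at day 3 to -0.13 at day 5, and stayed negative with quantile normalization and equal array medians. At day 26 all 5 were negative, against 41.16% of all tested genes. The median of the 5 was -0.12, or -0.23 under each of the other scalings, where 1 of the 5 had an unadjusted p under 0.05. Prkdc, the catalytic subunit of DNA-PK, was at 5.88 and 5.87 at day 1, 6.05, 5.66 and 6.11 at day 3, 5.58, 5.63 and 5.97 at day 5, 5.63 and 5.99 at day 12, and 5.76 and 5.51 at day 26, against 5.36, 5.99 and 5.92 in sham cells. Sham replicate 1 was the lowest of all 15 arrays, and every day overlapped sham; late minus early was -0.19 ± 0.16 (adjusted p = 0.632 by limma), -0.095 without day 12 replicate 1 and -0.12 without day 26 replicate 2. Xrcc6, which encodes Ku70, was at 6.13 and 6.04 at day 1, 6.07, 6.23 and 6.14 at day 3, 5.81, 5.95 and 6.00 at day 5, 6.20 and 5.74 at day 12, and 6.10 and 5.91 at day 26, against 6.21, 6.02 and 6.24 in sham cells. The day 5 arrays lay below sham, with a difference of -0.22 ± 0.14 (adjusted p = 0.703). The lymphocyte markers, higher than sham on that day, had a correlation of -0.755 with Xrcc6 over the 14 samples, and -0.724 within groups. Their part in the Xrcc6 difference was not tested.

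Its partner Xrcc5, Ku80, averaged 6.80 ± 0.053 at day 26 and 7.05 ± 0.096 in sham cells (SD, n = 2 and 3; adjusted p = 0.386 by limma), with both day 26 samples below sham. The Ku genes varied together over the 14 samples, with a correlation of 0.73, and 0.80 within groups; each also followed Polb (0.74 for Xrcc5 and 0.72 for Xrcc6). These samples share arrays and cell composition, and the values are given as a description. Xrcc4, the scaffold of the ligation step, averaged 6.09 in the late and 6.25 in the early proton days (adjusted p = 0.427), with 6.18 ± 0.087 in sham cells. Lig4, the ligase itself, averaged 6.14 ± 0.15 at day 26 and 6.26 ± 0.18 in sham cells (adjusted p = 0.716), a difference of -0.12 that ran from -0.23 to -0.016 with 1 sample left out.

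Base excision repair, the pathway for oxidised bases, had 7 of its 8 genes below sham and 1 above in the mean of the 5 days. Of all tested genes, 46.67% lay below. The median of the 8 was -0.076 and no gene was past the test. The counts were also 7 and 1 with quantile normalization (median -0.12) and equal array medians (-0.10). Ogg1, the glycosylase that removes 8-oxoguanine, was at 5.32 and 5.58 at day 1, 5.89, 5.62 and 5.46 at day 3, 5.27, 5.33 and 5.63 at day 5, 5.40 and 5.68 at day 12, and 5.62 and 5.65 at day 26, against 5.67, 5.80 and 5.78 in sham cells. Days 1, 5 and 26 lay below all sham samples, and days 3 and 12 reached into the sham range. The difference was -0.30 ± 0.16 at day 1, and -0.17 without day 1 replicate 1, and -0.28 ± 0.16 at day 5 (adjusted p = 0.754 and 0.665 by limma). The day 5 value was -0.45 without replicate 3 and -0.12 without the mean of replicates 1 and 2. The neutrophil and erythroid markers of day 1, higher in replicate 2 than in replicate 1, apply here too. Ogg1 was lower in replicate 1, and the part of these markers was not tested. Apex1, the endonuclease that cuts at the site left by a glycosylase, was at 7.39 and 7.23 at day 1, 7.17, 7.38 and 7.18 at day 3, 7.41, 7.40 and 7.21 at day 5, 7.15 and 7.02 at day 12, and 6.94 and 7.05 at day 26, against 7.24, 7.36 and 7.06 in sham cells. All 4 late samples were below all 5 early ones, and both day 26 samples were below sham. Late minus early was -0.24 ± 0.090 (unadjusted p = 0.0211 and adjusted p = 0.305 by limma).

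Parp1 makes poly(ADP-ribose) at breaks. It was at 6.87 and 7.01 at day 1, 6.89, 6.90 and 6.88 at day 3, 6.88, 6.84 and 6.76 at day 5, 7.02 and 6.75 at day 12, and 6.96 and 6.90 at day 26, against 6.88, 6.99 and 7.02 in sham cells. The groups covered nearly the same range, except that the day 5 arrays lay just below sham (-0.15 ± 0.11, adjusted p = 0.709 by limma). Lig1, the ligase that also seals Okazaki fragments, was at 5.23 and 4.80 at day 1, 5.23, 5.04 and 4.77 at day 3, 5.04, 5.03 and 5.28 at day 5, 4.88 and 4.79 at day 12, and 5.46 and 5.31 at day 26, against 5.34, 5.36 and 5.10 in sham cells. Both day 12 samples lay below sham, and the day 26 values lay in or above its range. The day 12 difference was -0.43 ± 0.19 (unadjusted p = 0.0368 and adjusted p = 0.611 by limma).

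Ung, Polb, Xrcc1 and Lig3 did not pass the test either. Ung, which removes uracil, averaged 6.23 ± 0.035 at day 1 and 6.45 ± 0.16 in sham cells (SD, n = 2 and 3; adjusted p = 0.754 by limma). Polb, the gap-filling polymerase, averaged 6.94 ± 0.0022 at day 26 and 7.13 ± 0.21 in sham cells (adjusted p = 0.576), a difference of -0.18 that was -0.31 without sham replicate 2 and -0.11 without sham replicate 3. Xrcc1, the scaffold of single-strand break repair, went the other way, with 6.29 ± 0.0047 at day 26 and 6.05 ± 0.10 in sham cells (adjusted p = 0.432). Lig3, the ligase that XRCC1 stabilises and that also serves mitochondria, averaged 6.30 in the late and 6.49 in the early proton days, with 6.41 ± 0.077 in sham cells; late minus early was -0.19 ± 0.089 (adjusted p = 0.381), and -0.11 without day 26 replicate 2.

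Nucleotide excision repair, the pathway for bulky lesions, had no gene past the test. Its 5 genes all had negative differences at days 1 and 3 (4 of 5 at day 1 with equal array medians). Of all tested genes, 51.65% and 49.04% were negative on those days. At day 26, 4 of the 5 were positive with a median of 0.056. For all tested genes the median was 0.052, with 58.84% positive. With quantile normalization 3 of the 5 were positive (median 0.021), and with equal array medians 2 of the 5 (median -0.049). Xpc, the sensor of distorted DNA and a p53 target, was at 5.88 and 5.48 at day 1, 5.73, 5.35 and 5.57 at day 3, 5.32, 5.47 and 5.82 at day 5, 5.63 and 5.67 at day 12, and 5.94 and 5.84 at day 26, against 5.74, 5.80 and 5.75 in sham cells. All samples of days 3 and 12 were below sham, and both day 26 samples above it. The differences were -0.22 ± 0.15 at day 3 (-0.12 without day 3 replicate 2) and 0.13 ± 0.17 at day 26 (adjusted p = 0.681 and 0.735 by limma; the second was 0.076 without day 26 replicate 1). Ercc1, the partner of the XPF nuclease, was at 7.55 and 7.62 at day 1, 7.49, 7.73 and 7.50 at day 3, 7.53, 7.53 and 7.63 at day 5, 7.62 and 7.50 at day 12, and 7.86 and 7.81 at day 26, against 7.72, 7.65 and 7.67 in sham cells. All arrays of days 1, 5 and 12 lay below sham. The 2 day 26 values were the highest of all arrays, with a difference of 0.16 ± 0.098 (adjusted p = 0.461).

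Xpa, which checks the damage, averaged 7.15 ± 0.082 at day 12 and 7.31 ± 0.18 in sham cells (SD, n = 2 and 3; adjusted p = 0.691 by limma), a difference of -0.16 that was -0.055 without sham replicate 1 and -0.10 without day 12 replicate 2. Ercc2 and Ercc3 encode the helicases of TFIIH. Ercc2, XPD, averaged 6.12 ± 0.091 at day 1 and 6.26 ± 0.15 in sham cells (adjusted p = 0.775), a difference of -0.14 that ran from -0.22 to -0.074 with 1 sample left out. Ercc3, XPB, had the lowest spread of the repair genes, a pooled SD of 0.056, and averaged 7.38 in the late and 7.31 in the early proton days, with 7.35 ± 0.026 in sham cells (adjusted p = 0.668); late minus early was 0.069 and ran from 0.028 to 0.11 with 1 sample left out.

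Of the mismatch genes, Pms2 was above the limit and Msh6 below it. Pms2, the endonuclease that nicks the new strand, was at 5.85 and 5.92 at day 1, 5.94, 6.40 and 5.86 at day 3, 6.37, 6.29 and 5.92 at day 5, 6.29 and 6.20 at day 12, and 6.18 and 6.35 at day 26, against 5.74, 6.20 and 6.22 in sham cells. Sham replicate 1 stood apart from the other sham arrays, and no day cleared the sham range. Late minus early was 0.28 ± 0.14 (adjusted p = 0.433 by limma). Msh6, which takes part in recognising mismatches, was at 4.52 and 4.66 at day 1, 4.80, 4.43 and 4.61 at day 3, 4.27, 4.30 and 5.02 at day 5, 4.89 and 4.62 at day 12, and 4.50 and 4.63 at day 26, against 4.39, 4.63 and 4.83 in sham cells. The contrast of smallest p, day 12, was 0.14 ± 0.23 (adjusted p = 0.915 in the fit without the filter), and ran from 0.0036 without day 12 replicate 1 to 0.27 without day 12 replicate 2.

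The wider pathway lists gave no calls either. Of 20 other double-strand break genes, 9 base excision, 15 nucleotide excision and 3 mismatch genes above the limit, 0 passed any of the 9 limma tests. At day 3, 3 of the 15 nucleotide excision genes had an unadjusted p under 0.05 by limma, all higher. The same limit was met there by 1 of the 20 (higher), 1 of the 9 (lower) and 0 of the 3. The share of all genes on that day was 8.86%. At day 26, the day with the most repair genes at an unadjusted p under 0.05, that limit was met by 3 of the 20 (2 higher and 1 lower), 2 of the 9 (both lower), 0 of the 15 and 2 of the 3 (both lower), against 14.3% of all genes. The largest changes there were 0.57 ± 0.16 for Fancg of the Fanconi core complex (adjusted p = 0.18), -0.45 ± 0.18 for Apex2 (0.285), 0.36 ± 0.20 for Ercc6, the transcription-coupled repair factor CSB (0.42), and -0.58 ± 0.18 for Msh3, a mismatch repair gene (0.2). Among 21 replication and proliferation genes, 3 (14.3%, as for all genes) met the unadjusted limit, all higher, with a median of 0.19 (0.083 with equal array medians) and the largest change in Rrm2, a ribonucleotide reductase subunit (0.55 ± 0.25, adjusted p = 0.337). Among 21 p53 targets, 3 also met it, 2 higher and 1 lower (1 higher and 3 lower with equal array medians), with the largest change in Trp53inp1 (0.70 ± 0.26, adjusted p = 0.269). On the early days more of them did, all higher and none past the adjusted test. The counts were 5 of 21 on day 1, against 5.5% of all genes, and 4 of 21 on day 3, against 8.86%. On day 5 the count was 4 of 21, 3 higher and 1 lower, against 8.99%. The p53 list shares some genes with the nucleotide excision list. The p53 targets Cdkn1a, Bax and Gdf15 had no probe set of their own and were not read.

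Over the 14 samples, the repair genes had a median correlation of -0.23 with the other-cell score, against -0.068 for all tested genes. The Pearson correlation was 0.62 for Wrn, 0.56 for Mdc1 and 0.52 for Atm (Spearman 0.49, 0.66 and 0.57), and 0.70, 0.80 and 0.76 within groups. It was -0.77 for Polb, -0.63 for Lig4, -0.58 for Ung, -0.57 for Ercc2, -0.56 for Xrcc6 and -0.51 for Rnf168. Without the 2 samples farthest from the median score, Xrcc6 had -0.24 and the other 8 lay between -0.69 and 0.59, with signs as before. Of the 28 genes, 3 were above 0.5 (10.7%), against 19.4% of all tested genes, and 6 below -0.5 (21.4%), against 15.8%. These are descriptions across samples that share arrays and groups, and the part of other cells in the levels was not tested further.

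**Figure D4:**
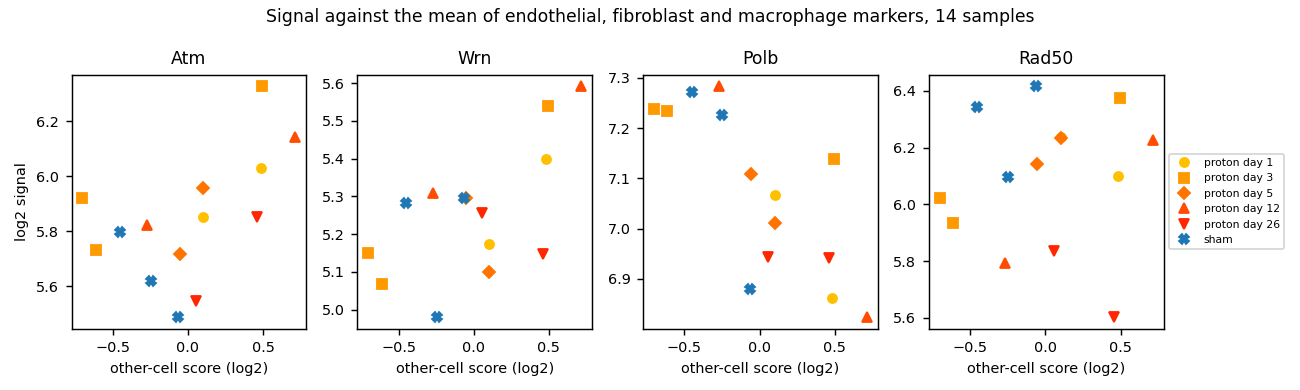
Log2 signal of Atm, Wrn, Polb and Rad50 against the other-cell score (mean log2 deviation of endothelial, fibroblast and macrophage markers) in 14 samples; marker shapes give the proton day, and blue crosses are sham. Atm and Wrn are higher and Polb lower in samples with a high score, and the 2 day 26 samples are low in Rad50 at scores of 0.054 and 0.46.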

How the data were processed

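The platform was the Affymetrix Mouse Gene 1.0 ST array, with 15 arrays. The deposited values are log2 signals, from 0.123 to 12.9, of 34760 probe sets. MAS5 is named in the submitters' processing notes; scaling and background steps are not given in the sources used here. Values were used as deposited. Arrays have no depth, and their number limits the precision. The 36 genes and all lists were chosen with earlier results of these data known.

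The platform annotation gave 21640 probe sets with 1 symbol, 1321 with several and 11799 with none. Each gene was read from its single-symbol probe set with the highest mean, and 12102 of 19937 genes lay above the median of all probe sets. limma 3.58.1 in R 4.3.3 (lmFit, eBayes with a variance trend) was fitted to 14 samples in 6 groups (8 residual degrees of freedom, 12.07 moderated), with Benjamini-Hochberg adjustment over all tested genes at 0.05. The procedure was tested on simulated data. Values in every sample are given for the 2 genes with the smallest p in each test and 11 set by name; other genes get their smallest-p contrast, and genes outside the 36 are named as the largest change of their list at day 26. Errors are SE for differences and SD for groups. Samples of equal replicate number, less their group means, had a median correlation of 0.0014 (31 pairs, 9 above 0.1). In groups of 2 arrays such values mirror each other, so this cannot show whether equal numbers mark related samples. Positions and promoters are from RefSeq (GRCm38.p6).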

Additional observations from a re-analysis of the deposited data

How the results depend on the processing

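The count of repair genes with an adjusted p under 0.05 stayed at 0 in every one of the 9 tests under quantile normalization, equal array medians, no filter, a filter at the 75th percentile, averaged probe sets, 15 separate arrays, other variance priors, array weights, smaller fits, sham of day 1 only and with each sample left out in turn (0 to 0). The exception was the other-cell score as a covariate, which gave 1 at day 26, Rad50 (-0.71, adjusted p = 0.0427), and 135 of all 12102 genes there, against 5 as deposited; the cause was not tested. Without the 3 samples of highest score, a choice made after seeing the data, the count was 0 and the adjusted p of Rad50 at day 26 was 0.0527; leaving out day 26 replicate 1 gave 0.675. With the replicate block the count was also 0 (Rad50 at day 26 -0.54, adjusted p = 0.246). Of the single gene values, 964 kept their direction and side of the threshold, and 2 near 0 changed sign: Fancd2 at day 3 (0.0325 with array weights) and Ercc3 late minus early (-0.0237 with equal array medians); the cause was not tested. Equal array medians moved the median of all genes at day 26 to -0.053, against 0.052 as deposited, and the share of genes higher among those with an unadjusted p under 0.05 to 20.9%, against 60.3%. For late minus early that share was 16.3%, against 51.8%. Under that scaling 4 repair genes at day 26 and 7 for late minus early had an unadjusted p under 0.05, all lower (14.3% and 25%, against 13.9% and 15.7% of all genes), and under quantile normalization 4 and 5, all lower (14.3% and 17.9%, against 14.3% and 12.8%). The repair genes' median relative to the median of all genes at day 26 was -0.094 as deposited and with equal medians, and -0.12 with quantile normalization. The small number of arrays per day limits what single days can show.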
